A study of Mus musculus with 20 samples.

Results

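Transcripts of the 6 genes of the platelet-derived growth factor (PDGF) family, the ligands Pdgfa, Pdgfb, Pdgfc and Pdgfd and the receptors Pdgfra and Pdgfrb, were followed in 20 mouse RNA-seq libraries of 7 cell type labels. The genes were taken by symbol from the deposited annotation, 6 of the 43432 genes in the count table, and all 6 were among the 15779 genes that passed the filter on low counts. The 15 libraries of the 5 lines that the study calls malignantly transformed held high levels of both receptors together with 2 of the ligands, Pdgfa and Pdgfc. The MDSC libraries, labelled as myeloid-derived immunosuppressive cells, held almost none of these 4 transcripts. Pdgfb and Pdgfd were highest in the 2 libraries labelled as normal bone marrow mesenchymal stem cells, which also held macrophage and leukocyte markers at high levels.

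PDGFs are secreted dimers that bind receptor tyrosine kinases on the cell surface. PDGF-AA and PDGF-CC act mainly through the alpha receptor, PDGF-BB binds both receptors, and PDGF-DD acts mainly through the beta receptor. PDGF-C and PDGF-D carry a CUB domain that proteases have to remove before the ligand can bind, whereas PDGF-A and PDGF-B are cut inside the cell by furin-type convertases. The alpha receptor marks oligodendrocyte precursors in the brain and fibroblasts elsewhere, the beta receptor marks pericytes and other mural cells, and gain of the alpha receptor or of its ligands is a known feature of a part of gliomas.

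The study set lines grown from host cells beside the human glioma stem cell line SU3 against cells it calls their precursors, all of the strain labelled Nude Mouse. The labels describe C12 (3 libraries) as macrophages transformed in vitro in co-culture and obtained with SU3+ peritoneal washing cells, ih_CTC (3) as transformed macrophages of a peritoneal xenograft, and ih_DCTC (3) as dendritic cells of the bone marrow transformed by co-culture with SU3 in vitro. They describe ih_BCTC (3) as transformed oligodendrocytes recultured from an SU3 tumour transplanted into the brain, and ih_STC_BM (3) as transformed mesenchymal stem cells cultured from a transplanted SU3 tumour, in a mouse with damaged and then rebuilt marrow. MDSC (3) are myeloid-derived immunosuppressive cells, and MSC (2) are normal mesenchymal stem cells of the mouse bone marrow. Malignant cells, MDSC and MSC were expanded by monoclonal culture, in DMEM with fetal bovine serum for the groups whose medium is stated (ih_BCTC is not among these), so that a group may stand for 1 clone. No label gives age, animal, batch or replicate number: library numbers follow deposit order, and p-values measure the spread between these libraries, which may be technical.

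Total counts per library lay between 8794768 and 12400624, which makes 3 counts equal to 0.225 to 0.44 CPM (the count scaled to library size), and 67.4% to 77% of reads were mapped. Levels are TMM-scaled CPM. The leukocyte gene Ptprc, at 1555 CPM in MDSC and 214 CPM in MSC, had a mean between 0.236 and 0.757 CPM in the 5 lines, also in the 3 lines labelled as macrophages or dendritic cells. Of 12 macrophage and leukocyte markers, 11 had a mean of at least 5 CPM in MDSC, 3 in C12, 2 in ih_DCTC and 1 in ih_CTC. Cd68, a gene of that list, was at 46.0 CPM in C12 and 37.0 CPM in ih_DCTC, nearer to the 56.5 CPM of MDSC. In ih_CTC it was 3.65 CPM. Of the 12 oligodendrocyte lineage markers, 4 were at 0 counts in every ih_BCTC library, Olig2 and Sox10 among them, and the summed level of the list there was 9.76 to 13.0 CPM. The 2 MSC libraries held macrophage and leukocyte markers at a summed 18069 to 24710 CPM, above the 11346 to 11561 CPM of MDSC, along with fibroblast markers at 7225 to 7475 CPM, so MSC is used here as the name of a label. In the lines these sums were 35.8 to 202 CPM and 4914 to 20392 CPM. The MDSC libraries differed from each other by 1.72 to 3.32 chi-square units per gene, where 1 is sampling noise and pairs within the other groups gave 25.6 to 282.

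Counts are not said to use strand, so reads of a gene and of a transcript on the other strand cannot be told apart. Pdgfa (ENSMUSG00000025856) lies on chromosome 5 from 138976014 to 138997370 on the minus strand and overlaps the long noncoding gene 6330403L08Rik of the plus strand, which held at most 175 counts in a library. Pdgfb (ENSMUSG00000000489) lies on chromosome 15 from 79995900 to 80014808, minus strand, and Pdgfc (ENSMUSG00000028019) on chromosome 3 from 81036416 to 81214040, plus strand. Pdgfd (ENSMUSG00000032006) lies on chromosome 9 from 6168612 to 6378843, plus strand, and Pdgfra (ENSMUSG00000029231) on chromosome 5 from 75152291 to 75198204, plus strand. Apart from Pdgfa, no member overlapped a gene with more than 1 count in any library. These are the positions of the deposited annotation, for which no genome build is stated here.

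Promoter windows are shown for Pdgfra, Pdgfc, Pdgfa and Pdgfd. These are the 4 of the 6 genes that matched the RefSeq promoter table used here by symbol, and they were not chosen by their levels. The windows cover 250 bases upstream of the RefSeq start on GRCm38.p6, read 5′ to 3′ on the gene's strand, and for Pdgfa only the longest stretch outside the gene's annotated exons is printed. Capitals mark the GC box, spelled GGGCGG, or the TATA box, spelled TATAAA, each searched on both strands. These motifs cannot overlap each other.
Pdgfra, chr5:75152001-75152250, plus strand: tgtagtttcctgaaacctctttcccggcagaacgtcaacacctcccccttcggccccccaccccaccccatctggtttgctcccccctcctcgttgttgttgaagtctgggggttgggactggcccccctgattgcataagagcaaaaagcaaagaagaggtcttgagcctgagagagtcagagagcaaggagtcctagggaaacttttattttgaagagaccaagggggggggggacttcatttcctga
Pdgfc, chr3:81036166-81036415, plus strand: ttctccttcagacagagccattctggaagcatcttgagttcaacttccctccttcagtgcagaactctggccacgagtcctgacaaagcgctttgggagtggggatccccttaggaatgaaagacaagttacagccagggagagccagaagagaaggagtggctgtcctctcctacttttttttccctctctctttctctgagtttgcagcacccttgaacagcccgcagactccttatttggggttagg
Pdgfa, inner start, chr5:138994282-138994398, minus strand: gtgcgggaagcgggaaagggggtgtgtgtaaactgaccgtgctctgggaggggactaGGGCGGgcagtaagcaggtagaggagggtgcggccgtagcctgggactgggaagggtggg
Pdgfa, outer start, chr5:138995038-138995194, minus strand: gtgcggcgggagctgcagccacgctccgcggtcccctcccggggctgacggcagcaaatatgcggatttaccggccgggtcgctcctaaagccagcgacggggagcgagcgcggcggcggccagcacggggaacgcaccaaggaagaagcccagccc
Pdgfd, chr9:6168236-6168485, plus strand: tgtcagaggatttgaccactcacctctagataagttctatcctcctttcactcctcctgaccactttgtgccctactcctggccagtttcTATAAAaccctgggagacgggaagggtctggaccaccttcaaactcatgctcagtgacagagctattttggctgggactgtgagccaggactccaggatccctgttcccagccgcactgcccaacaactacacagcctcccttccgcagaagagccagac
Among 32851 windows of 250 bases before mouse gene starts, 32.7% held the GC box and 12.4% the TATA box, and the median GC content was 52.4%. The Pdgfra and Pdgfc windows held neither motif, at 54.4% and 50.8% GC. Both full Pdgfa windows were richer, at 66.4% and 72.4% GC. The inner Pdgfa window held 1 GC box. The outer one held 2, both within the bases not printed. Pdgfd had 1 TATA box, whose first base was 160 bases upstream of its start, in a window of 53.6% GC. These matches describe the letters of the windows and are not shown to be sites of a factor.

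**Figure D1:**
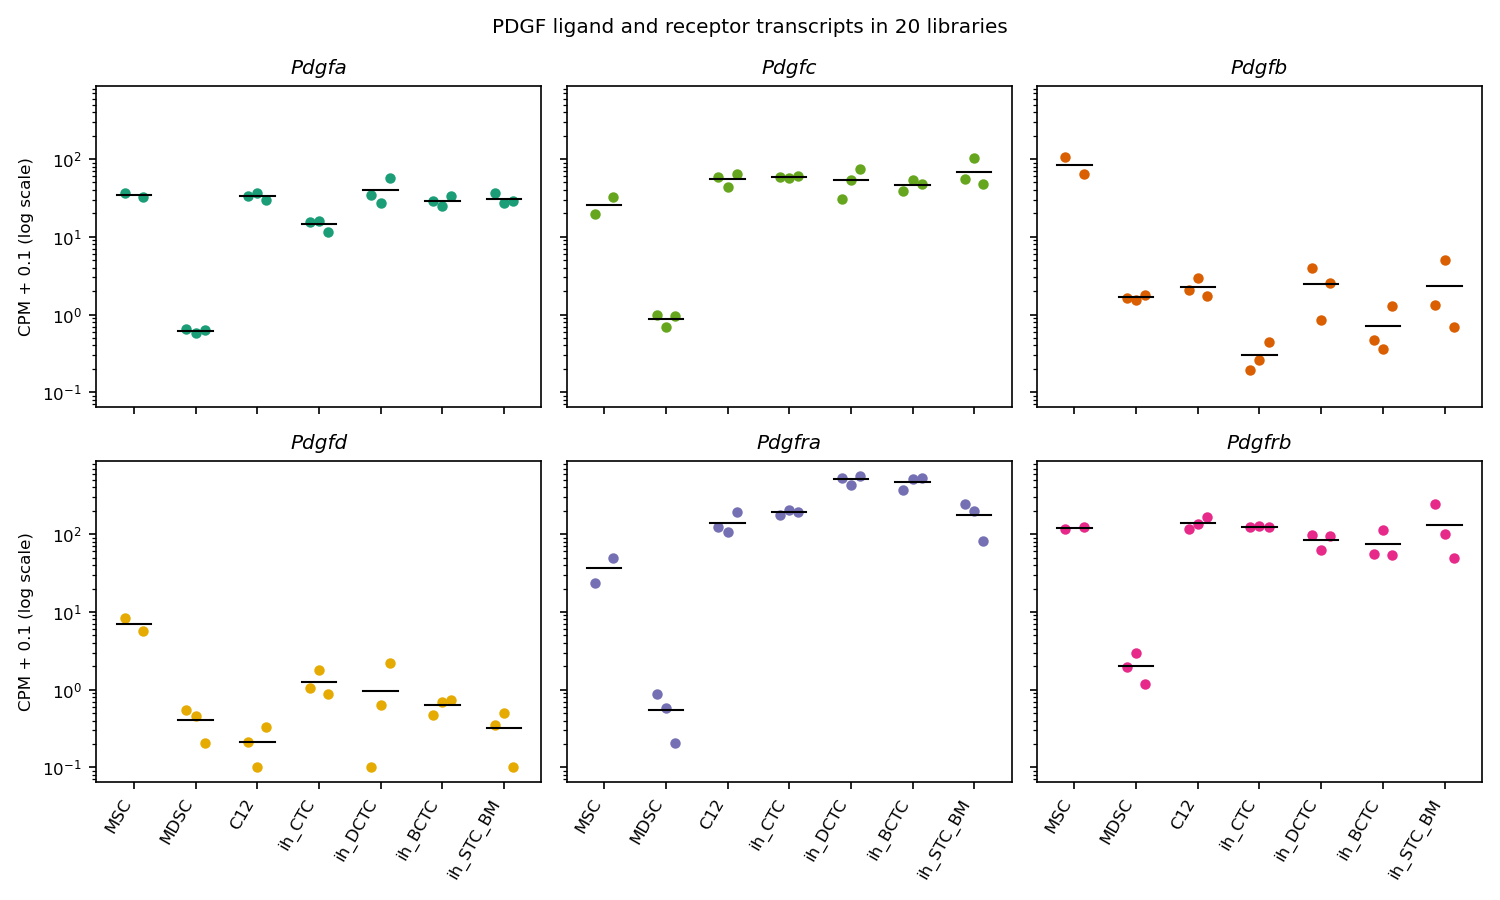
Level of each PDGF gene in every library (CPM + 0.1 on a log axis); points are libraries and the line is the group mean, for MSC (n = 2) and the 6 other groups (n = 3 each). Pdgfa, Pdgfc, Pdgfra and Pdgfrb are low in MDSC alone, whereas Pdgfb and Pdgfd are high in MSC alone.

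The first question was how the family differs between a line and its labelled precursor. Against MDSC, 4 of the 6 genes were higher in C12, where 31.3% of all genes tested were called higher by edgeR's quasi-likelihood test at an adjusted p of 0.05, and none was lower, beside 30.5% of all genes. In ih_DCTC 4 were higher (31.2% of all genes) and none lower (28.1%), and in ih_CTC 4 were higher (28.2%) and 1 lower (27.1%). The 4 were Pdgfa, Pdgfc, Pdgfra and Pdgfrb in each line. The median log2 fold change of the 6 genes was 6.04 in C12, 5.37 in ih_CTC and 5.75 in ih_DCTC, where that of all genes tested was 0.03, 0.08 and 0.09. These 3 comparisons share the MDSC libraries. MDSC themselves had all 6 genes lower than MSC and none higher, in a comparison that called 25.6% of genes lower and 20.4% higher, with a median of -5.84 over the 6 and -0.07 over all genes.

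Set against MSC, the labelled precursor of ih_STC_BM, that line had 2 genes higher (Pdgfra and Pdgfc), where 14.8% of all genes were called higher, and 2 lower (Pdgfb and Pdgfd), where 17.3% were called lower. The same split of 2 higher and 2 lower was found in C12 (14.7% of genes higher and 18.4% lower) and ih_DCTC (16% and 18.1%). In ih_CTC 2 were higher and 3 lower (14.7% and 19.9%), and in ih_BCTC 1 was higher and 2 were lower (15.9% and 20.8%). These 5 comparisons share the same 2 MSC libraries, so the repeated split is not independent. The medians over the 6 genes against MSC lay between -0.60 and 0.09, since rises of some members stood beside falls of others. Without MSC replicate 1 the count fell from 4 to 2 in C12 and in ih_DCTC and from 5 to 3 in ih_CTC. Without ih_CTC replicate 3 it fell from 5 to 3 in ih_CTC, and without ih_DCTC replicate 2 from 4 to 2 in ih_DCTC.

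**Figure D2:**
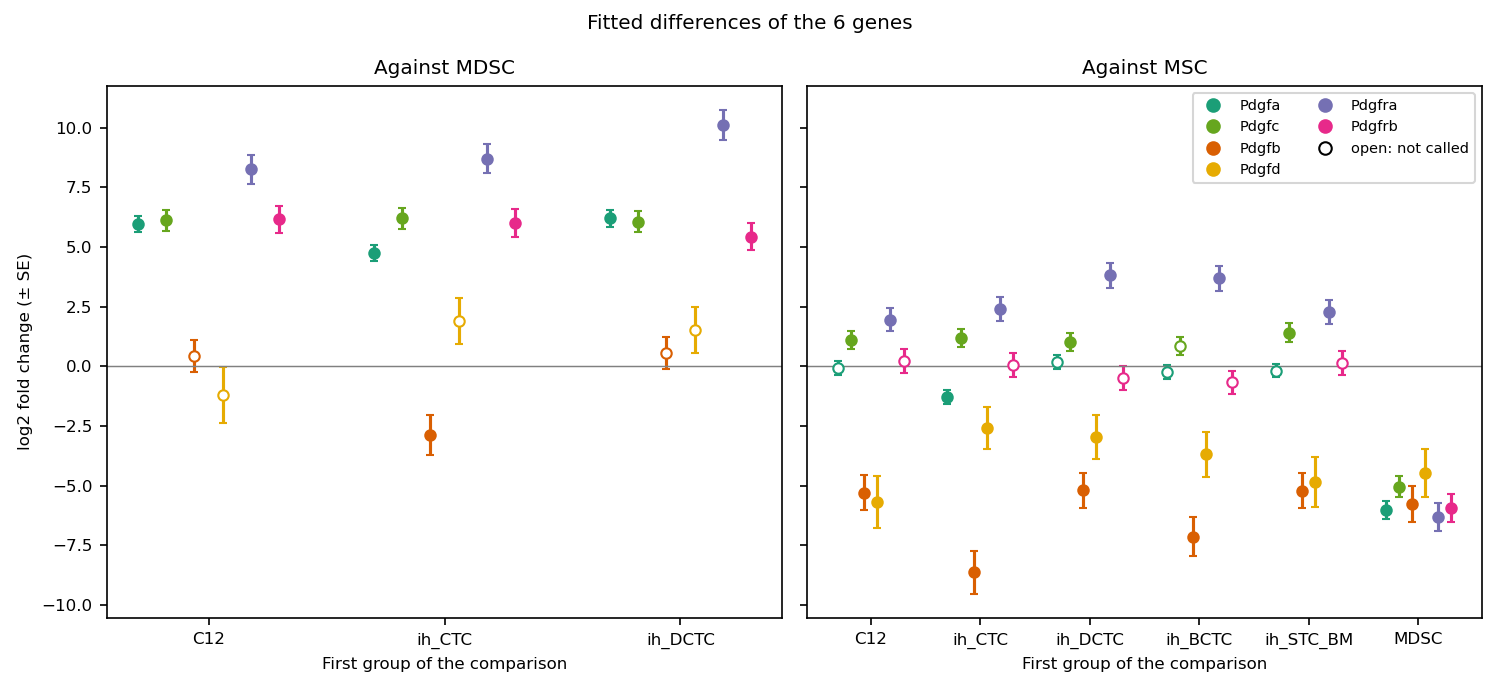
Fitted log2 fold change with its standard error for the 6 genes, left against MDSC and right against MSC; filled points passed an adjusted p of 0.05 and open points did not. The lines lie 4.74 to 10.10 above MDSC in Pdgfa, Pdgfc, Pdgfra and Pdgfrb, and their differences from MSC in Pdgfb lie between -8.62 and -5.20.

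Pdgfa encodes the A chain, a ligand of the alpha receptor. Its level was 33.2, 36.7 and 29.8 CPM in the 3 C12 libraries, 34.3, 27.4 and 56.5 CPM in ih_DCTC, 29.1, 24.9 and 33.5 CPM in ih_BCTC and 36.3, 27.3 and 28.4 CPM in ih_STC_BM. It was 15.6, 15.99 and 11.4 CPM in ih_CTC, 36.4 and 32.8 CPM in MSC, and 0.552, 0.481 and 0.532 CPM in MDSC. The MDSC libraries, with 4 or 5 counts each, lay below all others, and ih_CTC lay below each library of the other 4 lines and of MSC. Against MDSC, Pdgfa was 62.1-fold higher in C12 (log2 fold change 5.96 ± 0.35 SE, edgeR adjusted p = 3.9e-10), 26.8-fold in ih_CTC (adjusted p = 3.2e-09) and 73.7-fold in ih_DCTC (adjusted p = 2.4e-10). Against MSC the log2 difference was -1.27 ± 0.28 in ih_CTC (edgeR adjusted p = 0.0021), and in the other 4 lines it did not pass the test, with 95% intervals that together span -0.85 to 0.79.

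Among the lines, Pdgfa differed by the edgeR F test (adjusted p = 0.0051), a test by which 33.2% of all genes were called. The mean of 14.3 ± 2.55 CPM (SD, n = 3) in ih_CTC was below that of C12 by 1.21 ± 0.26 on the log2 scale (edgeR adjusted p = 0.0047), of ih_DCTC by 1.46 ± 0.26 (adjusted p = 0.0022), of ih_STC_BM by 1.10 ± 0.26 (adjusted p = 0.0099) and of ih_BCTC by 1.03 ± 0.26 (adjusted p = 0.024). The difference from ih_BCTC missed the threshold without any 1 of ih_CTC replicates 1, 2 and 3 and ih_BCTC replicates 1 and 3, at adjusted p between 0.057 and 0.11, and with no filter on low counts (0.052). That from ih_STC_BM missed it in a fit of the compared groups alone (0.068). The other 4 lines, at 29.2 to 39.4 CPM, were not told apart from one another in any pair, with 95% intervals that together span -0.79 to 0.98 on the log2 scale.

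Pdgfc, the gene of the other dedicated alpha receptor ligand, had the smallest span of line means among the 6. It stood at 58.7, 43.5 and 63.9 CPM in C12, 57.8, 57.5 and 60.6 CPM in ih_CTC, 30.2, 53.5 and 75.1 CPM in ih_DCTC, 38.4, 53.1 and 47.3 CPM in ih_BCTC and 55.9, 103 and 48.2 CPM in ih_STC_BM. The level was 19.6 and 32.3 CPM in MSC and 0.883, 0.601 and 0.852 CPM in MDSC. All 15 line libraries except ih_DCTC replicate 1 lay above both MSC libraries, and MDSC lay far below everything else. No difference among the lines passed the F test (edgeR adjusted p = 0.62), and their means spanned 1.49-fold. The test was passed with intron share in the model (adjusted p = 0.049) and without the 5 line libraries under 3% introns (0.031). Each of C12, ih_CTC and ih_DCTC exceeded MDSC, by 69.8-fold, 73.9-fold and 66.8-fold (edgeR adjusted p = 4e-09, 3.1e-09 and 4e-09).

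Over MSC the rise in Pdgfc was smaller: 2.66-fold in ih_STC_BM (edgeR adjusted p = 0.0097), 2.26-fold in ih_CTC (adjusted p = 0.024), 2.13-fold in C12 (adjusted p = 0.036) and 2.04-fold in ih_DCTC (adjusted p = 0.045), and 1.78-fold without passing the test in ih_BCTC (adjusted p = 0.095). None of these 4 calls held without MSC replicate 1, the library with the lower Pdgfc, where the adjusted p was 0.14 in ih_STC_BM, 0.25 in ih_CTC, 0.3 in C12 and 0.34 in ih_DCTC. Other single libraries ended 3 of them too: C12 without replicate 1 or 3 (adjusted p = 0.077 and 0.072), ih_CTC without replicate 3 (0.051), and ih_DCTC without replicate 2 or 3 or MSC replicate 2 (0.076, 0.19 and 0.051). In a fit of the compared groups alone those of C12, ih_DCTC and ih_STC_BM were lost (0.062, 0.13 and 0.12) and ih_BCTC passed (0.043), as it did without the line libraries under 3% introns (0.0089). The ih_DCTC call was also lost with limma-voom (adjusted p = 0.052) and with no filter on low counts (edgeR, 0.061). Adding intron share to the model left a log2 rise of 0.48 in ih_CTC (edgeR adjusted p = 0.2). Intron share was 6.1% to 7.32% in ih_CTC and 2.07% to 3.09% in MSC, so that fit extends a trend within groups across a gap between them.

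Pdgfb, whose product binds both receptors and draws pericytes to vessels, had the opposite distribution. Its level was 105 and 64.4 CPM in MSC. It was 1.55, 1.44 and 1.70 CPM in MDSC, 1.98, 2.85 and 1.65 CPM in C12, 3.86, 0.752 and 2.45 CPM in ih_DCTC, 0.375, 0.258 and 1.17 CPM in ih_BCTC, 1.23, 4.86 and 0.586 CPM in ih_STC_BM, and 0.0961, 0.163 and 0.342 CPM in ih_CTC. Both MSC libraries stood above all 18 others by more than an order of magnitude, and the ih_CTC levels rest on 1, 2 and 4 counts. ih_STC_BM was below MSC by 5.20 ± 0.73 on the log2 scale, or 36.8-fold (edgeR adjusted p = 3.3e-05). The fall was 39.3-fold in C12, 36.7-fold in ih_DCTC, 140.0-fold in ih_BCTC, 394-fold in ih_CTC and 53.8-fold in MDSC, at adjusted p between 9.1e-07 and 3e-05.

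Macrophage and leukocyte markers, like this ligand, were higher in MSC than in the lines. The summed level of the 12 markers was 18069 to 24710 CPM in MSC and at most 202 CPM in a line library. All 12 had counts in every group, and the number with a mean of at least 5 CPM was 12 in MSC, 11 in MDSC and 1 to 3 in the lines. In MSC, Cd68 stood at 1509 ± 383 CPM (SD, n = 2) and Csf1r, the receptor of the macrophage growth factor CSF1, at 980.4 ± 55.0 CPM. MDSC, at 11346 to 11561 CPM for the same list, had Pdgfb at 1.56 ± 0.132 CPM (SD, n = 3). Members of the list differed in direction: Cd68, at 56.5 CPM in MDSC, was lower there than in MSC, whereas Ptprc was higher in MDSC. Platelet and megakaryocyte markers summed to 238 to 408 CPM in MSC, 38.5 to 43.9 CPM in MDSC and 10.5 to 29.6 CPM in the lines, and Pf4, a platelet chemokine gene, made up 301 CPM of the MSC sum. Endothelial markers summed to 92.5 to 107 CPM in MSC, 139 to 143 CPM in MDSC and 4.05 to 19.7 CPM in the lines. The part of these cells in the MSC level of Pdgfb was not tested, and in bulk RNA fewer cells of a type and less RNA per cell cannot be told apart.

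**Figure D3:**
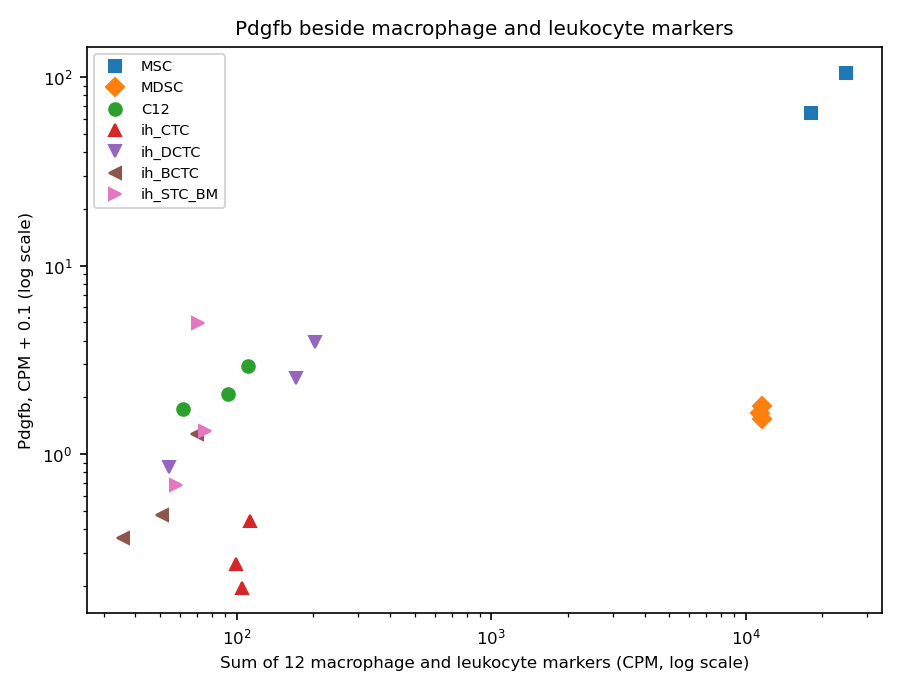
Pdgfb (CPM + 0.1) against the summed CPM of 12 macrophage and leukocyte markers, both on log axes, 1 point for each of the 20 libraries. MSC is high on both axes, and MDSC, at a marker sum of 11346 to 11561 CPM, lies at the Pdgfb level of the lines.

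Between MDSC and its 3 lines, Pdgfb was lower in ih_CTC by 2.87 ± 0.84 on the log2 scale (edgeR adjusted p = 0.0077), and in C12 and ih_DCTC the difference did not pass the test (log2 fold change 0.45 and 0.55, with 95% intervals of -0.96 to 1.86 and -0.86 to 1.96). Pdgfb differed among the lines (edgeR F test, adjusted p = 0.011). ih_CTC was lower than C12 by 3.33 ± 0.82, than ih_STC_BM by 3.42 ± 0.82 and than ih_DCTC by 3.43 ± 0.82 on the log2 scale (edgeR adjusted p = 0.011, 0.011 and 0.016). These calls rested on single libraries: that against C12 was lost without ih_CTC replicate 1 or 2 (adjusted p = 0.054 and 0.055), that against ih_STC_BM without ih_CTC replicate 2 or ih_STC_BM replicate 2 (0.053 and 0.061), and that against ih_DCTC without ih_CTC replicate 1 or 2 or ih_DCTC replicate 1 (0.081, 0.079 and 0.068).

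Pdgfd, whose product signals mainly through the beta receptor, reached 1 CPM in 4 libraries. It held 80 and 64 counts in MSC (8.33 and 5.62 CPM), 10, 21 and 9 in ih_CTC (0.961, 1.71 and 0.770 CPM), 0, 7 and 23 in ih_DCTC and 5, 7 and 7 in ih_BCTC. In C12 it held 1, 0 and 3 counts, in ih_STC_BM 2, 4 and 0, and in MDSC 4, 3 and 1. Both MSC libraries exceeded all others. The fall from MSC was 28.5-fold in ih_STC_BM (edgeR adjusted p = 0.0018), 51.1-fold in C12 (adjusted p = 0.00063), 12.8-fold in ih_BCTC (0.0052), 7.74-fold in ih_DCTC (0.018) and 6.0-fold in ih_CTC (0.032). The ih_DCTC call was lost without its replicate 2 or MSC replicate 1 (adjusted p = 0.063 and 0.1) and in a fit of the compared groups alone (0.073), and the ih_CTC call without its replicate 1 or 3 or either MSC library (adjusted p between 0.064 and 0.17). No difference from MDSC or among the lines passed the test (edgeR adjusted p = 0.1 for the F test over the lines), but several alternatives gave a call. Against MDSC, ih_CTC passed with intron share in the model (log2 fold change 3.20, edgeR adjusted p = 0.018) and without the line libraries under 3% introns (1.90, 0.02). ih_DCTC passed in the same fits (3.43 and 2.01, edgeR adjusted p = 0.036 and 0.021) and without its replicate 1, which had no count (2.06, 0.047). Intron share was 9.64% to 10.36% in MDSC and at most 8.52% in a line library, so the fits with intron share extend a trend across that gap. Over the lines, the adjusted p was 0.044 by DESeq2 and 0.026 by edgeR without ih_DCTC replicate 1.

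Pdgfra, the gene of the alpha receptor, had the largest F statistic of the 6 for a difference among the lines. It stood at 529, 427 and 566 CPM in ih_DCTC and at 366, 514 and 525 CPM in ih_BCTC. In ih_CTC it was 176, 206 and 191 CPM, in C12 122, 105 and 195 CPM, and in ih_STC_BM 247, 200 and 81.5 CPM. MSC held 23.1 and 49.3 CPM, and MDSC 0.773, 0.481 and 0.106 CPM. All libraries of ih_DCTC and ih_BCTC lay above all 9 libraries of the other 3 lines, every line library lay above both MSC libraries, and MDSC lay lowest, on 7, 4 and 1 counts.

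Against MDSC, Pdgfra was higher by 8.25 ± 0.60 on the log2 scale in C12, by 8.69 ± 0.61 in ih_CTC and by 10.10 ± 0.63 in ih_DCTC, or 305-fold, 413-fold and 1098-fold (edgeR adjusted p = 4.3e-09, 2.5e-09 and 7.9e-10). Over MSC it was 4.87-fold higher in ih_STC_BM (edgeR adjusted p = 0.0019), 3.89-fold in C12 (0.0049), 5.27-fold in ih_CTC (0.0012), 12.9-fold in ih_BCTC (3.6e-05) and 14.0-fold in ih_DCTC (3.1e-05). The C12 call was lost without MSC replicate 1 (adjusted p = 0.094), and the ih_STC_BM call in a fit of the compared groups alone (adjusted p = 0.061).

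The 5 lines differed in Pdgfra (edgeR F test, adjusted p = 0.0035), with means that spanned 3.60-fold, from 141 ± 47.9 CPM in C12 to 507 ± 71.6 CPM in ih_DCTC (SD, n = 3 each). In the order of the means, C12, ih_STC_BM (176 ± 85.5 CPM) and ih_CTC (191 ± 15 CPM) were neighbours that did not differ beyond their spread, and so were ih_BCTC (468 ± 88.5 CPM) and ih_DCTC. Across that gap, C12 was lower than ih_DCTC by 1.85 ± 0.42 on the log2 scale (edgeR adjusted p = 0.0067) and than ih_BCTC by 1.73 ± 0.42 (0.0074). ih_STC_BM was lower than ih_DCTC by 1.52 ± 0.41 (0.023) and than ih_BCTC by 1.41 ± 0.41 (0.024), and ih_CTC lower than ih_DCTC by 1.41 ± 0.41 (0.043). The difference of ih_CTC from ih_BCTC, -1.29 ± 0.41, missed the threshold (edgeR adjusted p = 0.074).

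Several of these pairs rest on 1 library. Without C12 replicate 2 the differences of C12 from ih_DCTC and ih_BCTC had adjusted p of 0.052 and 0.06. Those of ih_STC_BM were lost without its replicate 3 (0.08 against ih_DCTC, 0.089 against ih_BCTC), without ih_DCTC replicate 3 (0.069), and without ih_BCTC replicate 2 or 3 (0.064 and 0.071), and in a fit of the compared groups alone (0.25 against ih_DCTC, 0.1 against ih_BCTC). That of ih_CTC from ih_DCTC was lost without any 1 of ih_CTC replicates 1, 2 and 3 and ih_DCTC replicates 1 and 3, at adjusted p between 0.1 and 0.15. The share of reads in introns moved with the level within C12: replicate 3, the highest in Pdgfra, had 5.23% and the others 1.02% and 2.52%. Within ih_DCTC it did not: replicate 1 had 2.33% and 529 CPM, and replicate 2 had 5.99% and 427 CPM. Without the 5 line libraries under 3%, the differences of C12 from ih_DCTC and ih_BCTC shrank to -1.29 and -1.24, with 1 C12 library left that is taken to vary like the other groups. That between ih_DCTC and ih_STC_BM became 1.28, with ih_STC_BM replicate 2 alone left. With intron share in the model instead, both C12 calls were kept, and the F test over the lines gave an edgeR adjusted p of 0.0011.

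Pdgfrb (ENSMUSG00000024620, on chromosome 18), the gene of the beta receptor, did not separate the lines or MSC. Its level was 116, 136 and 165 CPM in C12, 122, 129 and 122 CPM in ih_CTC, 97.1, 61.8 and 94.1 CPM in ih_DCTC, 55.2, 114 and 54.3 CPM in ih_BCTC and 247, 101 and 48.9 CPM in ih_STC_BM. MSC held 115 and 122 CPM and MDSC 1.88, 2.88 and 1.06 CPM. The 3 ih_STC_BM libraries spanned all other lines, and those of ih_DCTC lay below those of C12, ih_CTC and MSC. The rise over MDSC was 71.6-fold in C12, 64.1-fold in ih_CTC and 43.4-fold in ih_DCTC (edgeR adjusted p = 8.6e-08, 1e-07 and 2.6e-07). No difference from MSC passed the test. The log2 difference was 0.16 in ih_STC_BM with a 95% interval of -0.89 to 1.21, and -0.67 in ih_BCTC with -1.70 to 0.37. The intervals of C12, ih_CTC and ih_STC_BM together span -0.98 to 1.28. The F test over the lines gave an edgeR adjusted p of 0.32.

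Pericyte and mural markers, cells known for Pdgfrb, summed to 1007 to 1791 CPM in MSC, 56.7 to 302 CPM in the lines and 23.1 to 24.1 CPM in MDSC, and 4 of the 10 were at 0 counts in ih_STC_BM. Acta2, a smooth muscle actin gene also expressed by activated fibroblasts, made up most of the MSC sum, at 1348 CPM there and at most 32.7 CPM in a line mean. Cspg4, the gene of the NG2 proteoglycan, and Notch3 went the other way, at 3.09 and 9.60 CPM in MSC, 107 and 63.2 CPM in C12 and 10.7 or more and 15.8 or more CPM in the other line means. Rgs5, a defining pericyte gene, was at 0 in ih_STC_BM and at a mean of at most 0.589 CPM in the other lines and 1.16 CPM in MSC. The fibroblast list summed to 4914 to 20392 CPM in the lines, where 1 or 2 of its 12 genes were at 0 counts in a group, and Col1a1, the gene of a type I collagen chain, stood at 1568 to 2343 CPM in the line means, 2075 CPM in MSC and 2.51 CPM in MDSC. The oligodendrocyte list summed to 12.8 to 31.7 CPM in the other lines, 87.6 to 122 CPM in MSC and 142 to 164 CPM in MDSC.

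Ligands and receptors were then set beside each other per kilobase of merged exon (3.12 kb for Pdgfa, 4.16 for Pdgfb, 5.09 for Pdgfc, 3.15 for Pdgfd, 10.0 for Pdgfra and 5.48 for Pdgfrb, from GENCODE M21), since a longer transcript collects more reads. On this scale the alpha receptor made up 76.9% ± 2.11 of receptor transcripts in ih_DCTC and 77.8% ± 6.53 in ih_BCTC (SD, n = 3 each). It was 45.6% ± 1.36 in ih_CTC, 45.0% ± 8.63 in ih_STC_BM, 35.2% ± 4.90 in C12, 14.0% ± 5.81 in MSC (n = 2) and 10.6% ± 6.88 in MDSC. No library of ih_DCTC or ih_BCTC fell under 71.1%, and no other library exceeded 52.1%. The log2 ratio of Pdgfra to Pdgfrb was 1.57, 1.92 and 1.72 in ih_DCTC, 1.86, 1.30 and 2.40 in ih_BCTC, -0.80, -1.24 and -0.63 in C12, -0.35, -0.20 and -0.22 in ih_CTC, -0.87, 0.12 and -0.14 in ih_STC_BM, and -3.19 and -2.18 in MSC. Whether a ratio near 0 is positive depends on the length used: with the longest transcript in place of merged exons, the means of ih_CTC and ih_STC_BM turned from -0.26 and -0.30 to 0.28 and 0.24, while differences between groups stay as they are.

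**Figure D4:**
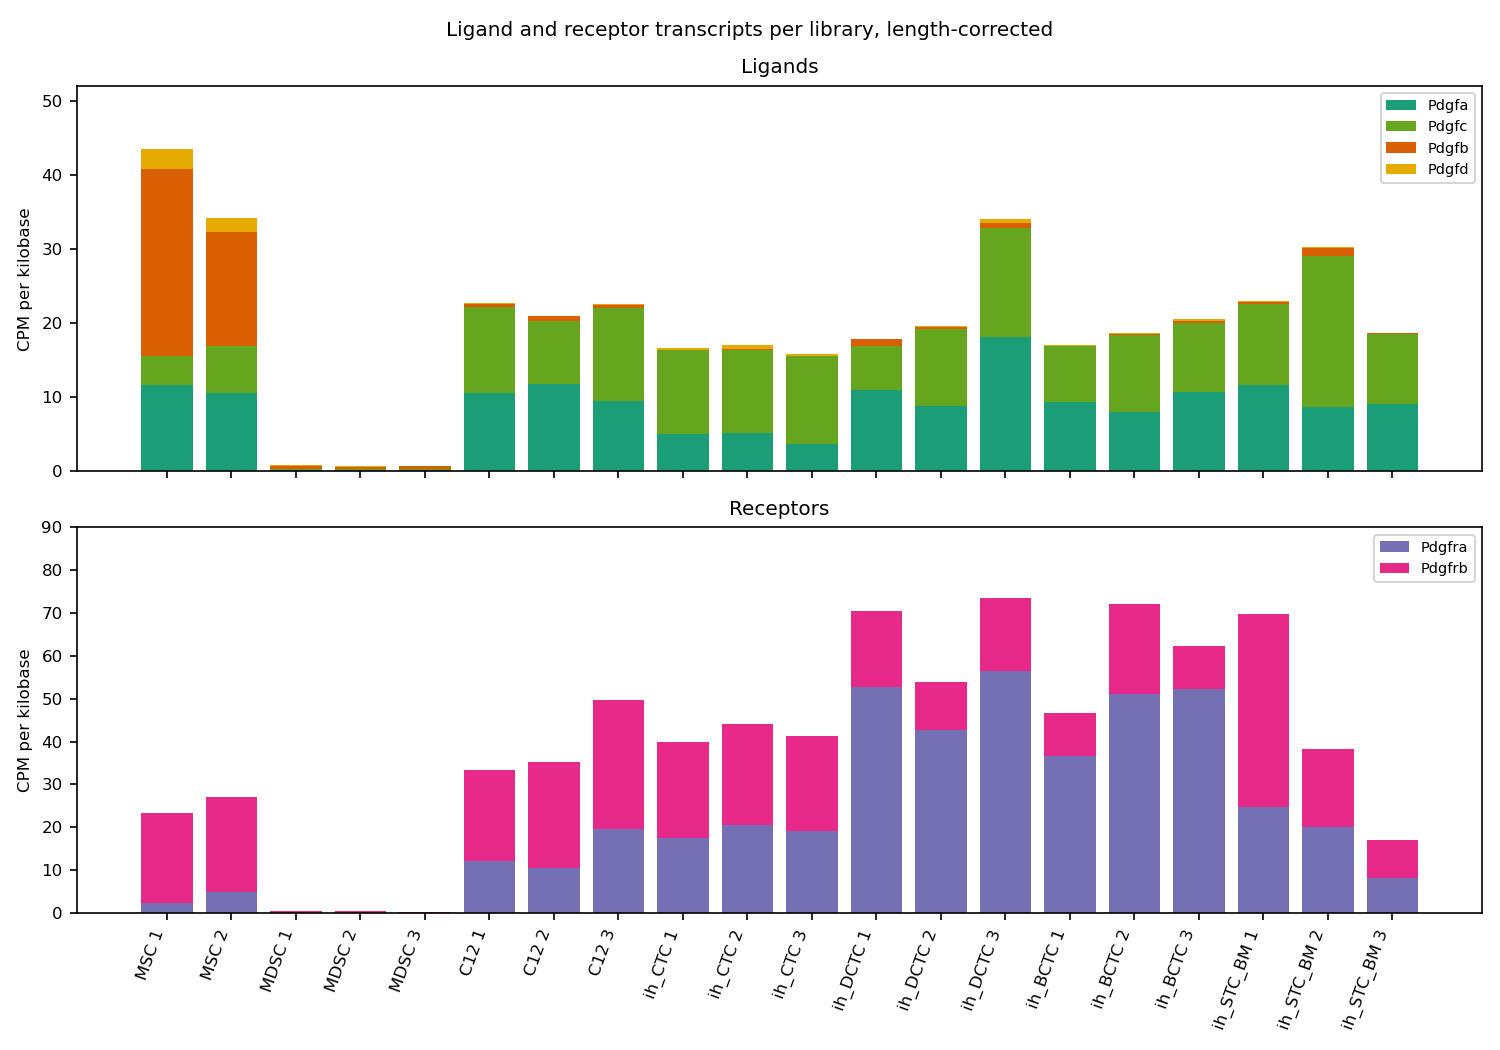
Ligand (top) and receptor (bottom) transcripts in each library as stacked bars of CPM per kilobase of merged exon. Pdgfb makes up the largest part of the ligand bars of MSC, Pdgfa and Pdgfc nearly all of those of the lines, and Pdgfra most of the receptor bars of ih_DCTC and ih_BCTC.

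On the ligand side, Pdgfa and Pdgfc together made up nearly all transcripts per kilobase in the lines. Pdgfc was 69.8% ± 4.52 and Pdgfa 27.7% ± 4.07 of the ligand sum in ih_CTC, and in the other 4 lines Pdgfc was 43.3% to 55.1% and Pdgfa 42.7% to 53.1% (group means). Pdgfb was 58.2% and 45.4% of the sum in the 2 MSC libraries, and at most 5.18% in any line library. In MDSC it was 47.6% ± 4.67, of a sum that was 0.792 ± 0.0650 CPM per kilobase. The sum was 16.5 to 24.0 CPM per kilobase in the means of the lines and 38.8 ± 6.59 in MSC. Receptor transcripts summed to 66.01 ± 10.6 CPM per kilobase in ih_DCTC, 60.3 ± 12.8 in ih_BCTC, 41.8 ± 2.15 in ih_CTC, 41.7 ± 26.5 in ih_STC_BM, 39.4 ± 8.87 in C12, 25.2 ± 2.72 in MSC and 0.400 ± 0.186 in MDSC.

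As ligand and receptor pairs, each line thus held transcripts of the alpha receptor together with its ligands Pdgfa and Pdgfc in the same libraries. Pdgfrb stood there with little transcript of its ligands Pdgfb and Pdgfd, at group means of at most 0.565 and 0.364 CPM per kilobase. MSC held Pdgfrb at 21.6 CPM per kilobase with Pdgfb at 20.4 and Pdgfd at 2.21, and Pdgfra at 3.61 with Pdgfa at 11.1 and Pdgfc at 5.10. In MDSC none of the 6 had a mean above 0.376 CPM per kilobase. These are transcript levels, and neither secreted ligand nor receptor activity was measured.

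Between the lines themselves, the 10 pairs called 0 to 3 of the 6 genes, 12 calls in all, none of which held under glmTreat, edgeR's test for changes beyond a log2 fold change of 1 (adjusted p between 0.05 and 1). For ih_CTC against ih_DCTC 3 were called, beside 8.21% of all genes, for C12 against ih_CTC 2 (16.5%), and for ih_CTC against ih_STC_BM 2 (18.2%). A single gene was called for C12 against ih_DCTC (12.2%), C12 against ih_BCTC (20%), ih_CTC against ih_BCTC (6.29%), ih_DCTC against ih_STC_BM (10.9%) and ih_BCTC against ih_STC_BM (20.4%), and no member for C12 against ih_STC_BM (7.54%). ih_DCTC and ih_BCTC, labelled as dendritic cells and as oligodendrocytes, differed in no member and in 0% of genes by edgeR, where 1605 genes had an unadjusted p under 0.05. DESeq2 called 103 genes and limma-voom 0. Without ih_DCTC replicate 2, edgeR called 490. The log2 difference in Pdgfra between them was 0.12 with a 95% interval of -0.73 to 0.97.

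The other genes of the pathway were read from lists. Their counts stand beside the shares of all genes called against MDSC in C12, ih_CTC and ih_DCTC, 28.2% to 31.3% higher and 27.1% to 30.5% lower, and against MSC in the 5 lines, 14.7% to 16% higher and 17.3% to 20.8% lower. Of 6 proteases that process the ligands, 2 were higher and 3 lower in each of C12, ih_CTC and ih_DCTC against MDSC. Plat, the gene of the plasminogen activator that cleaves PDGF-C, was at 57.2, 64.1 and 82.1 CPM in these lines and 1.0 CPM in MDSC (log2 fold change 5.82, 5.98 and 6.34, edgeR adjusted p = 1.3e-07, 9e-08 and 5.1e-08). St14, the gene of matriptase, which cleaves PDGF-D, went the other way, at 1.60, 0.148 and 0.443 CPM against 26.9 CPM in MDSC (log2 fold change -4.05, -7.41 and -5.84). Against MSC, 1 protease was higher in each line, and 4 were lower in ih_STC_BM, 3 in ih_BCTC and ih_DCTC, 2 in ih_CTC and 1 in C12. Plau, the urokinase gene, stood at 386 CPM in MSC and 15.1 to 51.7 CPM in the lines (log2 fold change between -4.67 and -2.90, edgeR adjusted p between 1.8e-05 and 0.00094). Plat was higher than the 5.98 CPM of MSC in C12, ih_CTC, ih_DCTC and ih_BCTC, by 3.25 to 3.77 on the log2 scale.

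Of 7 co-receptors and binding proteins, 5 were higher and 1 lower in C12, ih_CTC and ih_DCTC against MDSC, with list medians of 3.91, 3.06 and 3.91. Sparc, a matrix protein that binds PDGF-B, was at 1313, 585 and 868 CPM against 1.52 CPM (log2 fold change 9.74, 8.57 and 9.14, edgeR adjusted p = 8.2e-11, 1.4e-10 and 1e-10). The gene of decorin, Dcn, another matrix protein, was at 679 CPM in ih_CTC and 1224 CPM in ih_DCTC against 0.915 CPM (adjusted p = 2.3e-06 and 1.2e-06). Against MSC, 2 to 4 of the 7 were lower and at most 1 was higher in each line. Nrp1, the gene of a co-receptor shared with VEGF signalling, stood at 245 CPM in MSC and at 38.6 CPM in C12, 26.6 CPM in ih_BCTC and 24.6 CPM in ih_DCTC (edgeR adjusted p = 0.0013, 0.00027 and 0.00022). Dcn was higher than in MSC in ih_BCTC, ih_CTC and ih_DCTC, at 587, 679 and 1224 CPM against 41.3 CPM.

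Adaptors and effectors that bind the activated receptors were called at shares near or below those of all genes apart from the higher calls in ih_CTC, so their counts are no result about the list. Against MDSC, C12 had 4 of 16 higher and 4 lower, ih_CTC 6 higher and 4 lower, and ih_DCTC 3 higher and 4 lower, with list medians of -0.61, 0.16 and -0.27. Grb10 rose to 69.5, 81.0 and 144 CPM from 2.85 CPM and Src to 96.2, 76.6 and 76.3 CPM from 4.62 CPM (edgeR adjusted p between 8.5e-10 and 1.1e-08). Against MSC 2 or 3 were higher and 2 lower in each line, and Grb2, the adaptor that leads to Ras, fell from 289 CPM to 107 CPM in C12, 72.8 in ih_BCTC, 79.8 in ih_CTC and 83.0 in ih_DCTC (log2 fold change -1.44, -1.99, -1.86 and -1.80).

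Phosphatases and feedback inhibitors of receptor signalling had members called either way, with 3 of 13 higher and 5 lower in C12 against MDSC, 5 and 3 in ih_CTC, and 6 and 3 in ih_DCTC. Ptprj, a receptor phosphatase gene that is also high in leukocytes, was at 8.29, 9.22 and 7.81 CPM in these lines against 239 CPM in MDSC and 158 CPM in MSC. Against MSC, 2 of the 13 were higher in C12, 3 in ih_STC_BM, 4 in ih_BCTC, 5 in ih_DCTC and 6 in ih_CTC, and 2 to 4 were lower. Spry2, an inhibitor of Ras signalling that growth factors induce, was higher in ih_BCTC (59.3 CPM) and ih_DCTC (60.8 CPM) than in MSC (9.50 CPM), by 2.64 and 2.68 on the log2 scale (edgeR adjusted p = 7.8e-05 and 7.6e-05). Between lines, 6 of the 13 were lower in C12 than in ih_BCTC and 4 lower than in ih_DCTC, and none was higher. Of all genes, 20% and 12.2% were called higher or lower in these 2 pairs. In each of ih_DCTC and ih_BCTC, 3 were higher than in ih_STC_BM, beside 10.9% and 20.4% of all genes called higher or lower.

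Growth factor early response genes were highest in MDSC. Of 14 genes, 10 were below MDSC and 1 above in both C12 and ih_CTC, against 9 and 2 for ih_DCTC, with medians of -3.18, -2.60 and -1.94. Fos and Fosb, immediate early transcription factors, both stood at 2028 CPM in MDSC, and at 20.4 and 17.1 CPM in C12 (log2 fold change -6.63 and -6.87, edgeR adjusted p = 0.015 and 0.0013). Against MSC, 4 or 5 of the 14 were higher and 1 was lower in each line. Ier3 was at 20.3 CPM in MSC and at 223 CPM in C12, 629 in ih_BCTC, 409 in ih_CTC and 1217 in ih_DCTC (edgeR adjusted p = 0.0034, 0.00029, 0.00076 and 9.5e-05).

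Of the 5 related VEGF ligands, 4 were higher and none lower than in MDSC in C12, ih_CTC and ih_DCTC. Figf, the gene of VEGF-D, was at 28.3, 41.6 and 29.6 CPM against 0.192 CPM (edgeR adjusted p = 7.8e-08, 3.3e-08 and 6.7e-08), and it was also above the 1.32 CPM of MSC in all 5 lines, by 4.39 to 4.94 on the log2 scale. Against MSC 2 or 3 of the 5 were higher and 1 lower, and the lower one was Vegfc in each of the 5 lines. Of the 6 related receptors, 2 were higher and 3 lower in the 3 lines against MDSC. Csf1r, a class III receptor kinase gene like both PDGF receptor genes, was at 4.52 CPM in C12, 0.419 in ih_BCTC, 2.64 in ih_CTC, 2.04 in ih_DCTC and 2.73 in ih_STC_BM, beside 221 CPM in MDSC and 980.4 CPM in MSC. Flt1, a VEGF receptor gene, was 53.4 CPM in ih_DCTC and 61.1 CPM in ih_BCTC against 1.31 CPM in MSC (log2 fold change 5.31 and 5.51, edgeR adjusted p = 3.7e-06 and 2.4e-06), and in the other lines its mean was 1.33 to 15.2 CPM.

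For each member the 3 genes with the most similar profile were named by Pearson's r of log2 CPM over the 20 libraries, among 11814 genes; as the libraries fall into 7 groups and MDSC lie far from the rest, r is a description. Pdgfra was closest to Lpar1, a lysophosphatidic acid receptor gene (r = 0.987), Twist1, a mesenchymal transcription factor gene (0.984), and Lamb1 (0.982). Pdgfrb was closest to Bgn (0.983), Col1a1 (0.977) and Sorbs3 (0.976), and Pdgfa to the basement membrane collagen gene Col4a2 (0.985), Ift43 (0.984) and Sparc (0.980). Pdgfc had Kirrel (0.991), Amotl1 (0.990) and Rbfox2 (0.988). Between 328 and 559 genes reached an r of 0.9 with each of these 4 members. Pdgfb had 16 such genes, led by Tecpr1 (0.953) and the lysosomal genes Psap (0.947) and Cd68 (0.947), and Pdgfd had 1, Plxdc2 (0.921), ahead of Cdh11 (0.879) and Dhcr7 (0.877). By Spearman's rank correlation Lpar1 ranked 4 for Pdgfra and Col1a1 ranked 528 for Pdgfrb. Lpar1, like Pdgfra, was highest in ih_DCTC and ih_BCTC, though with their order exchanged, at 187 and 219 CPM, 96.2 in ih_CTC, 62.5 in ih_STC_BM and 47.1 in C12, above 15.8 CPM in MSC and 0.417 CPM in MDSC.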

How the data were processed

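RNA was measured by sequencing of 20 libraries made with TRIzol and a TruSeq RNA kit, per the labels' protocols. The deposited table gives, for each Ensembl gene, expected counts that the authors estimated (8.37% were fractional). The percent of reads mapped and of reads in introns come from a quality table the authors deposited. STAR, RSEM 1.2.26 and DESeq2 are listed, without roles, in the submitters' processing notes, and no genome build is stated there. Of 42462 gene identifiers, 33497 had the same position in GENCODE M21, as did 3 of the 6 members. Exon lengths were taken from GENCODE M21 and promoter windows from RefSeq (GRCm38.p6).

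Counts were rounded and scaled by TMM in edgeR 4.0.16 (R 4.3.3), and filterByExpr (minimum count 10, minimum total 15) kept 15779 genes. All 20 libraries entered 1 robust quasi-likelihood fit with 1 mean for each group, which left 13 residual degrees of freedom. In all, 21 pairs of groups and 1 F test over the 5 lines were tested two-sided, with Benjamini-Hochberg adjustment over all genes of a comparison at 0.05. Floors of 3 counts and intervals of 95% cover counting or model error only. The scripts were checked on simulated data. The alternatives tried were upper quartile and RLE scaling, no filter, DESeq2 1.42.0, limma-voom 3.58.1, the compared groups alone, glmTreat above a log2 fold change of 1, intron share added to the model, omitting 5 line libraries under 3% introns, the MDSC libraries summed to 1, and leaving out each library. Figures were drawn with matplotlib 3.10.9.

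The members, the lists and the tests were chosen with earlier results of these data known. Named were the 6 members, the 3 genes closest to each (at least 5 CPM in the highest group) and at most 2 called genes per list and comparison of largest change, if they reached 5 CPM in the higher group. Marker genes, and levels given for a named gene in further groups, are descriptions. The 13 lists hold 134 genes, 118 of them tested: 7 of the pathway (proteases, co-receptors, adaptors, phosphatases and feedback inhibitors, early response genes, VEGF ligands, related receptors) and 6 of cell type markers.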

Additional observations from a re-analysis of the deposited data

How the results depend on the processing

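Of 1101 alternative values over 74 differences of single members, 1005 kept direction and side of the threshold, 76 lost and 7 gained the call, and 13 changed sign. The 74 hold all differences of C12, ih_CTC and ih_DCTC from MDSC and of each line and MDSC from MSC. Differences between lines, and those of ih_STC_BM and ih_BCTC from MDSC, were included only if called. Uncalled differences of these pairs were not tallied, so they could not count as a gained call or a sign change. None of the 884 alternative values of the 59 called differences changed sign. The sign changes were all of differences near 0 or of few counts. Pdgfa in C12 against MSC (-0.06) became 0.00118 with the compared groups alone, 0.0143 with no filter and 0.0823 with upper quartile scaling, and -0.14 to 0.0153 without single libraries. Pdgfa in ih_DCTC against MSC (0.19) ranged from -0.17 to 0.39 without single libraries. Pdgfb in ih_DCTC against MDSC (0.55) became -0.0432 without the line libraries under 3% introns, and Pdgfd in C12 against MDSC (-1.20) became 1.24 with intron share in the model. MDSC lay above every line library in intron share, so the latter fit extends a trend beyond the lines. Pdgfd in ih_DCTC against MDSC (1.53) ranged from -0.0176 to 2.06 without single libraries. Pdgfrb in ih_CTC against MSC (0.07) became -0.00377 with the compared groups alone, and in ih_STC_BM against MSC (0.16) it became -0.147 with limma-voom and -0.273 without the line libraries under 3% introns, and ranged from -0.66 to 0.61 without single libraries. With the longest transcript as length, the mean log2 ratio of Pdgfra to Pdgfrb turned to 0.283 in ih_CTC and 0.243 in ih_STC_BM.

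Counts of members called fell from 5 to 2 in ih_CTC against MSC and from 4 to 2 in ih_DCTC against MSC with glmTreat, which also ended all 12 member calls between lines, and from 4 to 2 in ih_DCTC and in ih_STC_BM against MSC with the compared groups alone. Without single libraries the count ranged from 2 to 4 in C12 and in ih_DCTC against MSC and from 3 to 5 in ih_CTC against MSC. With the MDSC libraries summed to 1, Pdgfd in MDSC against MSC had an edgeR adjusted p of 0.059. Upper quartile scaling moved the median of all genes by 0.27, 0.17 and 0.22 on the log2 scale in C12, ih_CTC and ih_DCTC against MDSC and by -0.13 in MDSC against MSC, and RLE by -0.14 and -0.13 in ih_CTC and ih_DCTC against MDSC. No paired analysis was run, since no label links libraries of different groups to each other. At 10 counts or fewer, as for Pdgfd in most libraries and Pdgfb in ih_CTC, counting error limits what could be seen.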
